A study of Mus musculus with 27 samples.

Results

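The genes described here are 35 members of glycolysis and pyruvate metabolism, followed over the first days in which mouse embryonic fibroblasts (MEFs) were reprogrammed to induced neurons (iNs). They were picked by gene symbol from the bulk RNA-seq table, by a rule that uses no measured value but was set with earlier results of these data known. The 35 symbols matched 36 of the 54532 entries, because Aldoa stands under 2 Ensembl identifiers (ENSMUSG00000030695, the main gene, and ENSMUSG00000114515, called the second Aldoa entry below). All 36 entries passed the filter on low values, which left 14932 genes to test.

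MEFs were taken from WT mice and from mice homozygous for a targeted allele of Per1 or of Per2, which encode circadian repressors, and 3 libraries labelled as biological replicates were made for each genotype on days 0, 2, and 4, 27 libraries in 9 groups. MEFs of several embryos were pooled in each dish, and the sex of the embryos was not determined. The cells of all 9 groups carried lentiviruses for the reprogramming transcription factors and for the doxycycline-dependent activator, added before day 0. Doxycycline and a serum-free medium with insulin, transferrin, selenium, and bFGF came in together on day 0 in place of a serum medium, so that induction of these factors and the change of medium cannot be told apart in any comparison of days.

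FPKM are fragment counts scaled by exon length and by a factor for each library. This factor was 0.865 to 0.925 times the fragments on genes on day 0 and 1.03 to 1.10 times on days 2 and 4. An equal share of fragments thus stands at a higher FPKM on day 0 than on days 2 and 4. The libraries labelled Per1-/- held 4.11 ± 0.866 FPKM of Per1 transcript on day 0 against 5.78 ± 0.479 in WT (SD, n = 3). Those labelled Per2-/- held 1.93 ± 0.068 FPKM of Per2 against 0.894 ± 0.0709 in WT (SD, n = 3) and lay above every WT library on each day, so they are named by their label. By western blotting, the paper reports that PER1 protein was lost in Per1-/- MEFs and PER2 protein in Per2-/- MEFs. Every sample is labelled induced neurons, on day 0 as well, while the summed level of 16 fibroblast markers had a median of 4633, 4845, and 6261 FPKM on days 0, 2, and 4 and that of 16 neuron markers 90.7, 146, and 182 FPKM. The summed level of 20 macrophage markers lay between 149 and 1247 FPKM on day 0, between 205 and 1440.2 on day 2, and between 524 and 2431 on day 4. Libraries held 15815013 to 24264097 fragments. In bulk RNA, fewer cells of a type and less transcript per cell cannot be told apart.

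Glycolysis splits glucose into pyruvate through a series of enzymes, of which hexokinase, phosphofructokinase, and pyruvate kinase catalyse steps that are in practice irreversible. Pyruvate is then either reduced to lactate and exported or carried into mitochondria, where the pyruvate dehydrogenase complex, held off by its kinases, turns it into acetyl-CoA. Proliferating cells such as fibroblasts in serum run glycolysis to lactate at a high rate, neurons rely largely on oxidation in mitochondria, and hypoxia-inducible factor (HIF) and MYC are well known activators of many of these genes.

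The start-site regions of the members are shown first, because many of them hold the letters to which HIF binds. RefSeq windows of GRCm38.p6 from 250 bases before to 50 bases after the start were matched for 34 of the 35 symbols. The core ACGTG or GCGTG was searched on both strands, together with the E-box CACGTG, which contains ACGTG. The core was present in 26 of the 34 windows (76.5%) against 43.8% of all 32851 RefSeq windows, and the E-box in 4 (11.8%) against 7.15%. Of the members that fell on day 2 by the test described with the results, 13 of 18 windows (72.2%) held the core, and of those that rose 3 of 4 windows did. Over all 51 windows of the members, of which some genes have several, the core was likewise present in 76.5%. The members and the RefSeq windows were not matched for kind of gene or base content, and both forms of the core contain CG. A match of letters is a description and shows no binding. The stretches below hold matches of 4 members that fell on day 2 (Hk2, Pgk1, Pgam1, and Ldha) and 3 that rose (Pfkm, Pdk2, and Ldhb). They lie upstream of the start and outside annotated exons, are written 5′ to 3′ on the gene's strand, and carry the matched letters in capitals, with CACGT and CACGC as the core read on the other strand.
Hk2, chr6:82774482-82774700, minus strand: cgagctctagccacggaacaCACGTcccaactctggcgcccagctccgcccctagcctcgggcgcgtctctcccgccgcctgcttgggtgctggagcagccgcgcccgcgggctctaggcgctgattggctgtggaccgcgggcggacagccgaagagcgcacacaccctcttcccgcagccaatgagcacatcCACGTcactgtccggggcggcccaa
Pgk1, chrX:106186930-106186993, plus strand: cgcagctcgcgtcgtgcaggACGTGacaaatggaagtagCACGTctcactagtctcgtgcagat
Pgam1, chr19:41911676-41911807, plus strand: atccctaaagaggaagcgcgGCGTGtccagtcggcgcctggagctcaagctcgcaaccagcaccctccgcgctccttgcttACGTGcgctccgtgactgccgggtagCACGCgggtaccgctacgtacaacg
Ldha, chr7:46845639-46845794, plus strand: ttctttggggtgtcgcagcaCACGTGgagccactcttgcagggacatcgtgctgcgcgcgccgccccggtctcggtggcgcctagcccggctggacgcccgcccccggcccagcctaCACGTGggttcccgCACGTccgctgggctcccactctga
Pfkm, chr15:98092433-98092478, plus strand: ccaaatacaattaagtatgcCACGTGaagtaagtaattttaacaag
Pdk2, chr11:95041472-95041517, minus strand: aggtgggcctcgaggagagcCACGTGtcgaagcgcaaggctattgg
Ldhb, chr6:142508059-142508103, minus strand: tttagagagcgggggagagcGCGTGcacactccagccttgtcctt
The RefSeq start used for Ldha lies 4329 bases inside the span that the deposited table gives for the gene.

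Between days 0 and 2, most members from glucose entry to lactate export fell, while those for pyruvate in mitochondria did not move as a group. A gene was called where its adjusted p (limma with Benjamini-Hochberg adjustment over all tested genes) did not exceed 0.05 and its log2 fold change reached 0.58 in either direction. In the mean over the 3 genotypes, 19 of the 36 entries were called lower and 5 higher, where 19.9% of all tested genes were called lower and 22.2% higher. The median log2 fold change was -0.65 over the members and -0.01 over all tested genes. Together the members took 0.767 to 0.890% of all FPKM on day 0, 0.356 to 0.491% on day 2, and 0.297 to 0.384% on day 4, with no overlap between day 0 and the later days. When the FPKM of each library were rescaled to a common sum, the median of all tested genes moved from -0.01 to 0.36 and that of the members to -0.28, and 15 members were called lower and 8 higher.

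**Figure D1:**
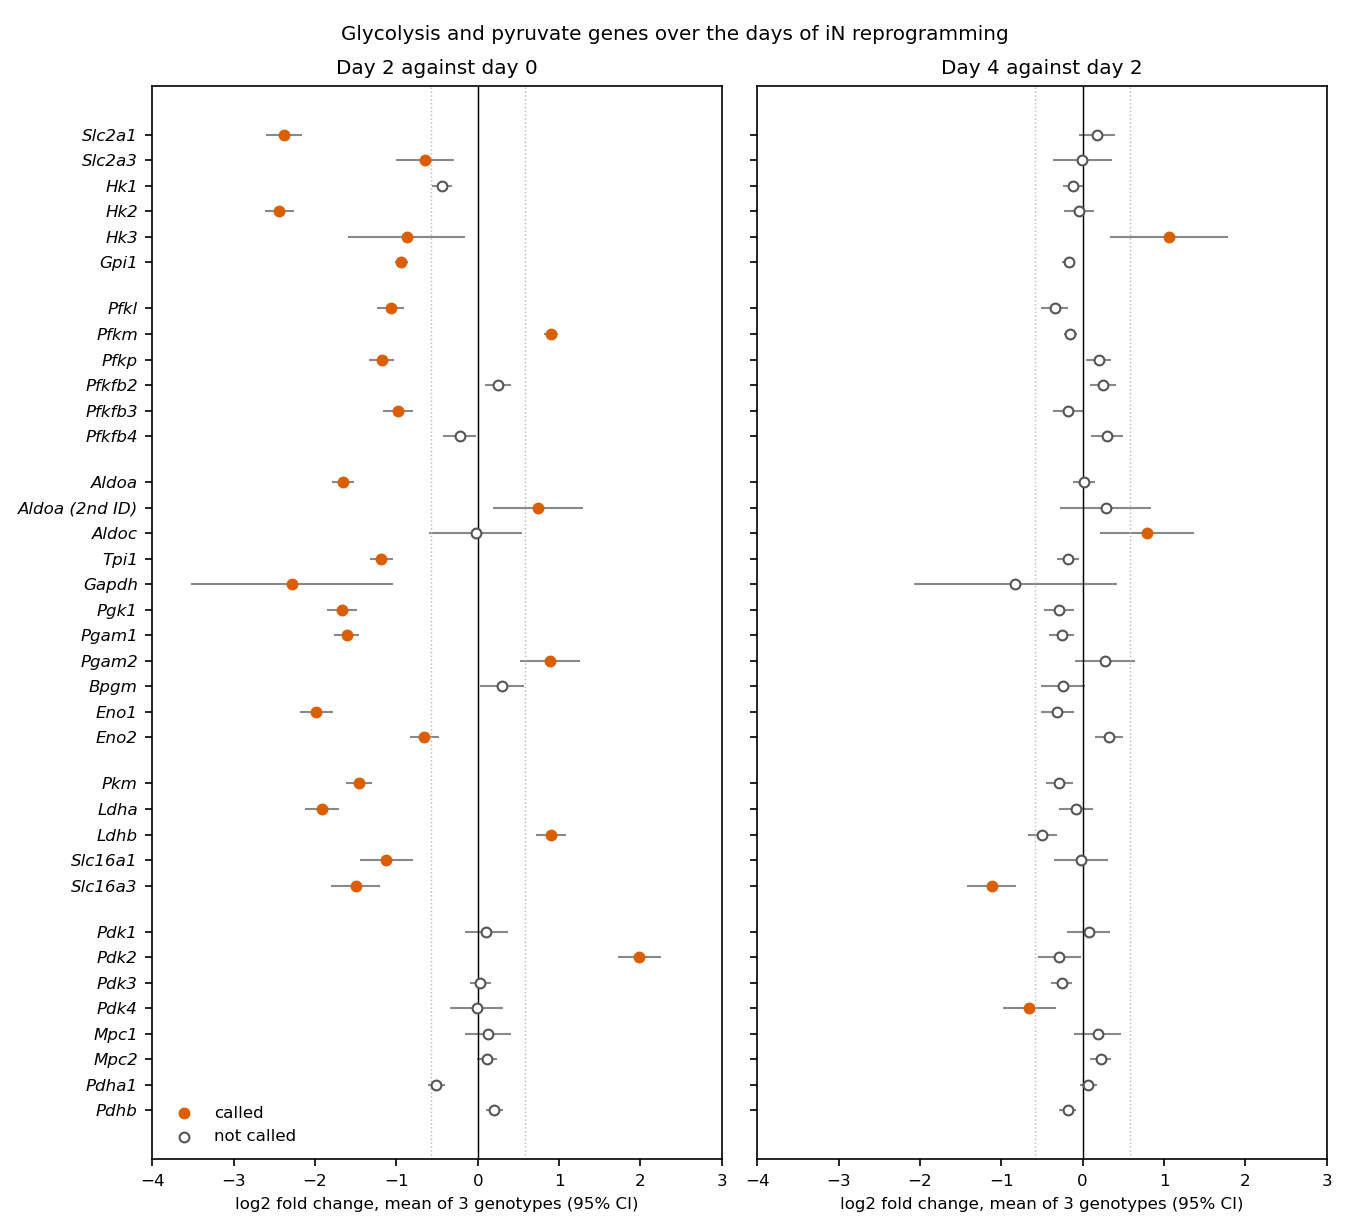
Log2 fold changes of the 36 entries between days, as the mean of the 3 genotypes with 95% confidence intervals, for day 2 against day 0 (left) and day 4 against day 2 (right), in blocks by role from glucose entry to mitochondrial pyruvate, with called entries filled and dotted lines at the minimum fold of 0.58. Most of the change lay between days 0 and 2, from -2.44 for Hk2 to 1.99 for Pdk2, and 4 entries were called between days 2 and 4.

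Of the 6 genes for glucose entry and its first phosphorylated forms, 5 were called lower on day 2, where 19.9% of all tested genes were. After rescaling, Slc2a3, Hk3, and Gpi1 were no longer called. Slc2a1 encodes GLUT1, the main glucose transporter of fibroblasts. Its level was 51.6, 43.0, and 58.3 FPKM in the WT libraries on day 0, 62.3, 54.2, and 54.0 in Per1-/-, and 41.2, 53.9, and 36.1 in those labelled Per2-/-. On day 2 the values were 11.0, 9.29, and 8.69 FPKM in WT, 8.21, 8.97, and 10.5 in Per1-/-, and 11.9, 7.37, and 10.2 in those labelled Per2-/-. The libraries of the 2 days did not overlap in any genotype, and the level was 5.22-fold lower on day 2 (log2 fold change -2.38, SE 0.106). Slc2a3, the high-affinity glucose transporter known from neurons, went from a median of 2.00 FPKM on day 0 to 1.22 on day 2 and 1.28 on day 4. Its fall of 0.65 on the log2 scale was no longer called after rescaling (-0.28). As a share of the FPKM of both transporters, Slc2a3 held a median of 3.37% on day 0 and 11.9% on day 2.

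The hexokinases trap glucose in the cell, and their makeup turned from near parity to mostly Hk1. Hk2, the inducible form, was found at 15.7, 13.0, and 14.2 FPKM in WT, at 12.7, 17.5, and 12.8 in Per1-/-, and at 11.7, 10.4, and 12.05 in those labelled Per2-/- on day 0. On day 2, all 9 libraries lay between 1.93 and 3.01 FPKM with a median of 2.25, and on day 4 between 1.76 and 3.18 with a median of 2.19. This was 5.43-fold lower on day 2 than on day 0 (-2.44, SE 0.0869). Hk1, the constitutive form of brain and most tissues, went from a median of 17.6 FPKM to 13.0 on day 2, and its change of -0.44 on the log2 scale passed the adjusted p but not the minimum fold. Among the FPKM of the 3 hexokinases, Hk1 rose from a median share of 52.4% to 80.2% and Hk2 went from 37.7% to 14.0%, without overlap between the days.

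Hk3 is the hexokinase of myeloid cells. It spread widely on day 0, from 0.879 to 7.06 FPKM with a median of 1.35, then from 0.223 to 3.46 on day 2 with a median of 1.06, and from 1.42 to 5.04 on day 4 with a median of 1.80. The days overlapped. Hk3 was called lower on day 2 (-0.88, adjusted p = 0.0281 by limma with Benjamini-Hochberg adjustment) and higher on day 4 than on day 2 (1.06, adjusted p = 0.0261, same test), and neither call was stable. The first was lost after rescaling (-0.52) and with 7 libraries left out in turn. The second was lost with 4 libraries left out in turn (0.90 to 0.96), namely replicate 2 of Per1-/- or of those labelled Per2-/- on day 2, replicate 1 of Per1-/- on day 4, and replicate 3 of those labelled Per2-/- on day 4, and also with no filter on low values. Without the libraries labelled Per2-/-, a choice made after the data were seen, the changes were -0.38 and 0.71, and neither was called. Of the 20 macrophage markers, 12 were called higher on day 2 and 14 were called higher on day 4 than on day 2. The library with the highest Hk3 level was on each day also the one with the highest macrophage sum, replicate 3 of Per1-/- on days 0 and 2 and replicate 1 of Per1-/- on day 4. The part of macrophages in the level of Hk3 was not tested. Gpi1, glucose 6-phosphate isomerase, fell in every genotype, from 55.1 to 71.0 FPKM on day 0 to 30.1 to 35.6 on day 2 and 25.7 to 32.6 on day 4 (-0.94, SE 0.0385, on day 2), although after rescaling its fold (-0.55) was under the minimum.

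**Figure D2:**
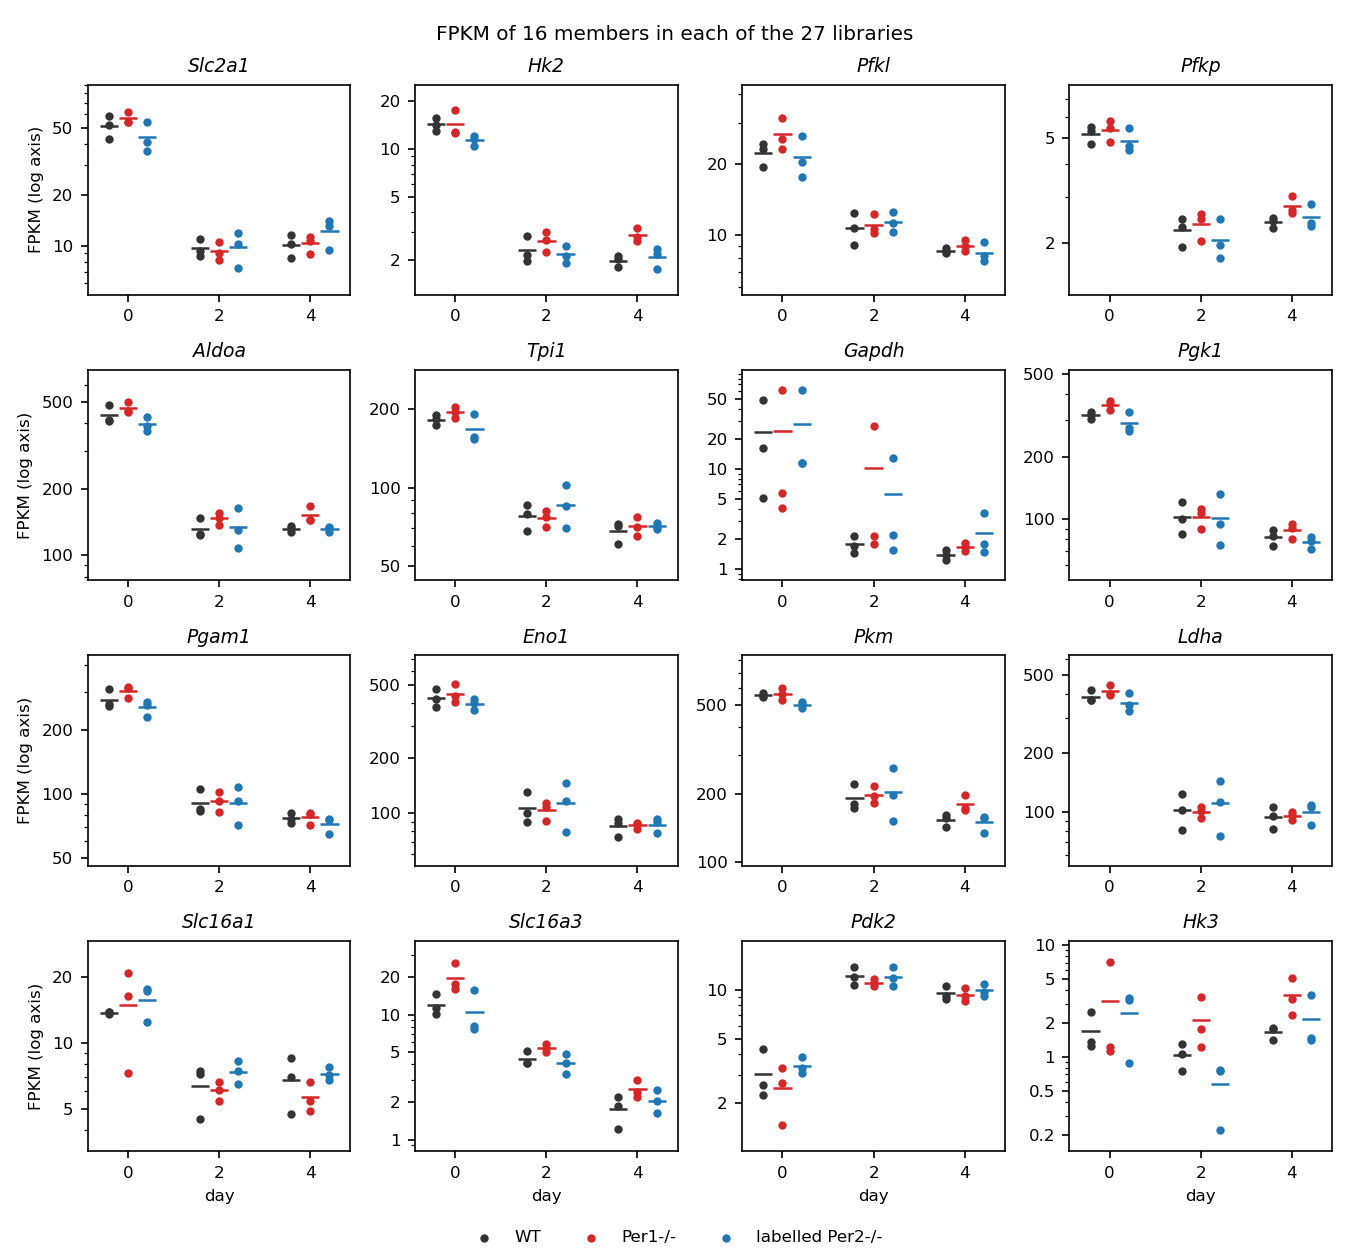
FPKM on a log axis against day for the 16 members with a called change of 1 or more in log2 units, 1 point for each of the 27 libraries, coloured by genotype, with lines at the mean of 3 libraries. For most members the day 0 points stand apart from days 2 and 4, as for Hk2 (10.4 to 17.5 against 1.93 to 3.01 FPKM on day 2). Gapdh and Hk3 overlap between days 0 and 2, and so does Slc16a1 through replicate 3 of Per1-/- on day 0.

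At the phosphofructokinase steps, 3 of 6 genes fell and 1 rose, and the isozymes of 1 enzyme went in opposite directions. Pfkl, the liver-type subunit, had 17.7 to 31.4 FPKM on day 0 (median 23.4), 9.12 to 12.6 on day 2 (median 10.7), and 7.77 to 9.55 on day 4 (median 8.59). Pfkp, the platelet-type subunit, had 4.50 to 5.78 FPKM on day 0 (median 5.33), 1.76 to 2.57 on day 2 (median 2.31), and 2.28 to 3.02 on day 4 (median 2.50). Both were lower in every later library than in every day 0 library, 2.10-fold for Pfkl and 2.27-fold for Pfkp on day 2.

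Pfkm, the muscle-type subunit, was in contrast 1.86-fold higher on day 2 (0.90, SE 0.0400), from 11.2 to 13.4 FPKM on day 0 to 21.2 to 24.8 on day 2. It stayed at 19.3 to 22.2 FPKM on day 4. Its share of the FPKM of the 3 subunits went from a median of 29.4% (25.3 to 34.9%) on day 0 to 63.2% (59.3 to 67.4%) on day 2, while that of Pfkl went from 57.7% to 30.9%. The sum of 16 muscle markers moved the other way, from a median of 287 FPKM on day 0 to 66.1 on day 2 and 80.6 on day 4, although 6 of the 12 tested were called higher on day 2 and 3 lower. Their part in the level of Pfkm was not tested.

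The PFKFB enzymes make and remove fructose 2,6-bisphosphate, the activator of phosphofructokinase. Pfkfb3, the form with the highest kinase activity, was lower on day 2 (median 3.19 FPKM) than on day 0 (median 5.998 FPKM) in every library (-0.98, SE 0.0877). Pfkfb2 and Pfkfb4 were not called, with log2 fold changes of 0.25 and -0.22, and rescaling turned Pfkfb2 into a called gene (0.61). The median share of Pfkfb3 among the 3 genes was 62.6% on day 0, 46.4% on day 2, and 39.0% on day 4.

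The steps from aldolase to enolase held many of the most abundant transcripts per length, and 7 of their 11 entries were called lower on day 2. Aldoa, which cleaves fructose 1,6-bisphosphate, had 369 to 498 FPKM on day 0 (median 429), 108 to 164 on day 2 (median 137), and 127 to 169 on day 4 (median 134). Tpi1, triose phosphate isomerase, had 154 to 205 FPKM on day 0 (median 185), 68.3 to 102 on day 2 (median 79.2), and 61.1 to 77.3 on day 4 (median 70.8). Day 0 was apart from both later days for each of these genes, with folds of 3.15 for Aldoa and 2.27 for Tpi1 on day 2.

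Pgk1, the first enzyme of the pathway to yield ATP, went from 266 to 371 FPKM on day 0 (median 327) to 74.9 to 133 on day 2 (median 100.2) and 71.5 to 95.2 on day 4 (median 82.3). Pgam1, phosphoglycerate mutase, went from 230 to 316 FPKM (median 270.4) to 71.2 to 107 (median 92.3) and 64.8 to 81.7 (median 75.8). Eno1, the ubiquitous enolase, went from 368 to 509 FPKM (median 419) to 78.6 to 147 (median 108) and 73.9 to 93.2 (median 88.8). Again no library of day 2 or 4 reached the lowest of day 0, and the folds on day 2 were 3.17 for Pgk1, 3.06 for Pgam1, and 3.96 for Eno1. All 3 genes share sequence with other genes, in 51.7%, 33.9%, and 20.4% of their windows of 100 exon bases, so part of their reads may be lost or counted elsewhere.

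Gapdh, the dehydrogenase of glyceraldehyde 3-phosphate, behaved unlike its neighbours. It was listed at 5.18, 49.1, and 16.2 FPKM in WT, at 4.10, 5.78, and 61.8 in Per1-/-, and at 11.5, 61.2, and 11.4 in those labelled Per2-/- on day 0. On day 2 the values were 2.14, 1.46, and 1.68 in WT, 2.12, 1.79, and 26.7 in Per1-/-, and 2.20, 13.0, and 1.53 in those labelled Per2-/-, and on day 4 they lay between 1.22 and 3.59. One library of each genotype stood well above the other two on day 0, and days 0 and 2 overlapped. The call on day 2 (-2.28, SE 0.599) has the largest SE of the list, and its confidence interval ran from -3.53 to -1.04. Of its windows, 20.9% occurred in 84 other genes, and those genes held more fragments on day 0 (median 917) than Gapdh itself (median 838), so its level is uncertain. The part of these copies in the spread was not tested.

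The minor isozymes of these steps took several courses. Pgam2, the muscle-type mutase, was 1.86-fold higher on day 2 (0.89, SE 0.177), with 1.53 to 4.597 FPKM on day 0, 4.03 to 8.48 on day 2, and 4.32 to 9.44 on day 4, and made up a median of 0.995%, 5.36%, and 7.19% of the mutase FPKM. Eno2, the neuron-specific enolase, was lower on day 2, as Eno1 was (median 7.25 FPKM on day 0, 4.32 on day 2, and 5.76 on day 4), a fall of 0.66 on the log2 scale that rescaling reduced to -0.28 and below the minimum fold. Since Eno1 was lower still, the share of Eno2 in the FPKM of both enolases went from a median of 1.84% to 3.79% and then 6.23%. Aldoc, the brain-type aldolase, was at a median of 1.51 FPKM on days 0 and 2 and of 3.64 on day 4. Bpgm, which makes 2,3-bisphosphoglycerate in red blood cells, was not called (0.29 on day 2, and 0.68 and called after rescaling), and 5 of 11 erythroid genes had no fragment on any day. The second Aldoa entry rose by 0.74, from a median of only 8 fragments to 16.

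Pyruvate kinase, lactate dehydrogenase A, and both lactate exporters fell, while lactate dehydrogenase B rose. Pkm, which makes pyruvate in nearly all tissues, had 486 to 598 FPKM on day 0 (median 548), 152 to 262 on day 2 (median 196), and 134 to 199 on day 4 (median 159), 2.75-fold lower on day 2. Ldha, which favours lactate formation, was found at 372, 372, and 419.8 FPKM in WT, at 443, 400.4, and 394 in Per1-/-, and at 351, 405, and 326 in those labelled Per2-/- on day 0. On day 2 its 9 libraries lay between 75.5 and 144 FPKM (median 102) and on day 4 between 81.5 and 109 (median 96.7), a 3.76-fold lower level on day 2 (-1.91, SE 0.1001). No later library of Pkm or Ldha came near the day 0 range.

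Ldhb, the form of heart and neurons that favours pyruvate formation, was 1.87-fold higher on day 2 (0.90, SE 0.0860). It had 21.4 to 31.6 FPKM on day 0 (median 27.9), 43.6 to 63.6 on day 2 (median 49.1), and 31.8 to 44.0 on day 4 (median 35.03), and its day 0 range lay below both others. On day 4 its log2 fold change from day 0 was 0.40, under the minimum fold. Its share of the FPKM of Ldha and Ldhb was 5.07 to 7.53% on day 0, 24.5 to 45.7% on day 2, and 23.1 to 34.0% on day 4.

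The monocarboxylate transporters encoded by Slc16a1 (MCT1) and Slc16a3 (MCT4, the exporter of highly glycolytic cells) took different courses. Slc16a1 had 7.28 to 20.9 FPKM on day 0 (median 13.9), 4.48 to 8.23 on day 2 (median 6.65), and 4.73 to 8.49 on day 4 (median 6.76). It was 2.18-fold lower on day 2. Over all genotypes day 0 overlapped with the later days, through replicate 3 of Per1-/- on day 0 (7.28 FPKM). Within each genotype, days 2 and 4 lay below day 0 in every library. Slc16a3 had 11.2, 10.2, and 14.5 FPKM in WT, 25.6, 17.6, and 15.9 in Per1-/-, and 7.72, 15.8, and 8.12 in those labelled Per2-/- on day 0. It fell to 3.34 to 5.77 FPKM on day 2 (median 4.87) and again to 1.22 to 3.02 on day 4 (median 2.19), each day below the one before in every library. Its fall was 2.83-fold between days 0 and 2 and 6.13-fold between days 0 and 4. The share of Slc16a1 in the FPKM of both was 31.5 to 67.9% on day 0 and 64.2 to 81.3% on day 4.

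**Figure D3:**
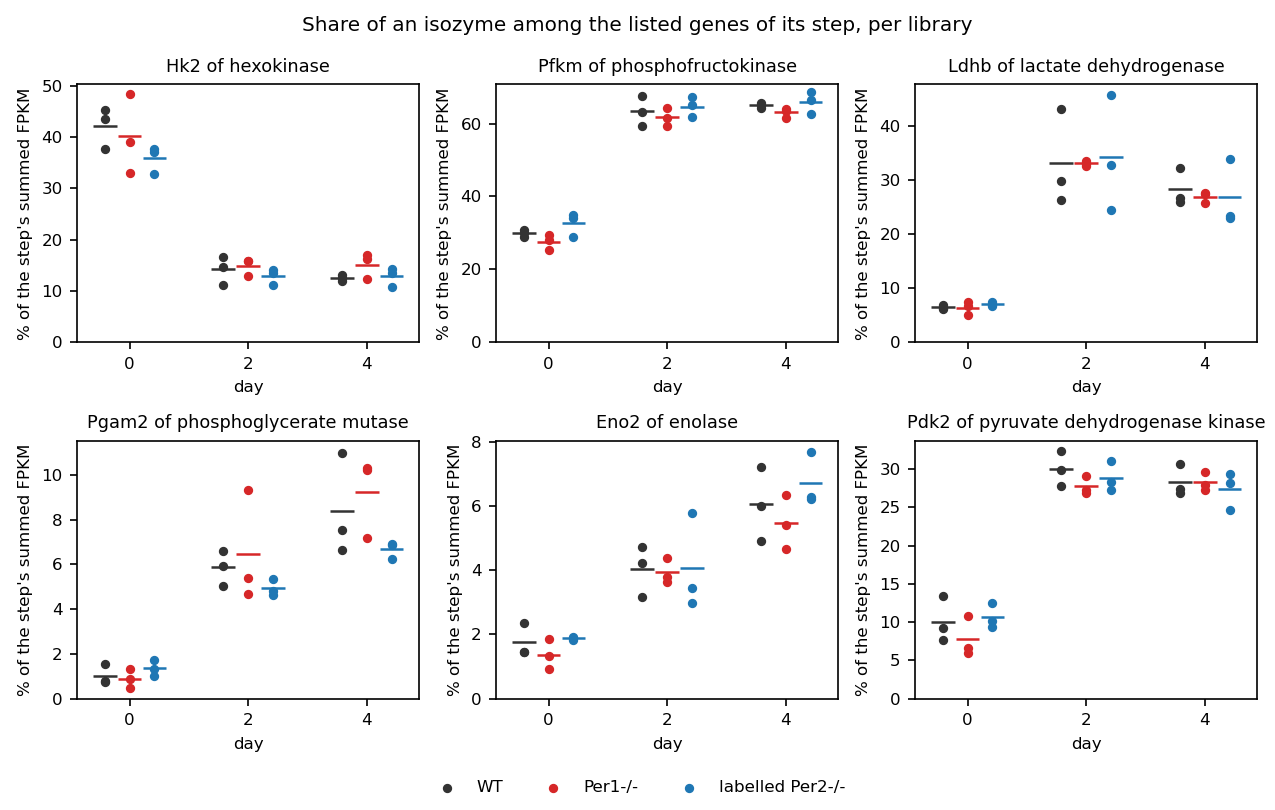
Percent of the summed FPKM of a step that came from 1 of its listed genes, against day, with 1 point for each library, coloured by genotype, and lines at the mean of 3 libraries. The shares of Pfkm, Ldhb, Pdk2, and Pgam2 on days 2 and 4 lay above all of day 0, and that of Hk2 below.

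Of the 8 genes for pyruvate in mitochondria, Pdk2 was the 1 called on day 2, and the median log2 fold change was 0.11. Pdk2 encodes a kinase that switches pyruvate dehydrogenase off. It was at 2.59, 4.31, and 2.25 FPKM in WT, 2.66, 1.48, and 3.32 in Per1-/-, and 3.84, 3.32, and 3.07 in those labelled Per2-/- on day 0. All 9 libraries were at 10.5 to 13.7 FPKM on day 2 (median 11.6) and at 8.51 to 10.8 on day 4 (median 9.20), 3.97-fold higher on day 2 (1.99, SE 0.126). Its share of the FPKM of the 4 kinases went from a median of 9.37% to 28.3%, although Pdk3 remained the most abundant at 66.7% on day 0 and 52.9% on day 2.

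The other kinases were not called on day 2, with log2 fold changes of 0.10 for Pdk1, 0.03 for Pdk3, and -0.01 for Pdk4. Pdk4, the kinase induced by fasting, was lower on day 4 than on day 2 in every library (2.01 to 4.06 against 1.26 to 1.85 FPKM, a fall of 0.65). Mpc1 and Mpc2 form the mitochondrial pyruvate carrier, and both had a log2 fold change of 0.12 on day 2. For Mpc1, with a median of 104 fragments on day 0, a pseudogene copy held 208. Pdha1 and Pdhb, the subunits of pyruvate dehydrogenase itself, differed: Pdha1 was lower in every library of day 2 (34.3 to 40.7 against 49.0 to 59.1 FPKM) but by less than the minimum fold (-0.51), and Pdhb had a change of 0.21 (0.59 and called after rescaling).

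Every library of day 2 lay below every library of day 0 for 16 members and above for 3 (Pfkm, Ldhb, and Pdk2), where 21.5% and 19.7% of all tested genes were set apart in this way. The 16 include Hk1 and Pdha1, whose folds were under the minimum. With the 6 entries left out that share over 10% of their windows with other genes (Pgk1, Pgam1, Gapdh, Eno1, Pfkfb2, and Pkm), a choice made after the data were seen, 14 of 30 were called lower and 5 higher, with a median of -0.47.

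Few members were called between days 2 and 4, although 20 of the 36 passed the adjusted p alone, where 29.8% of all tested genes did. An unadjusted p under 0.05 by limma was found for 61.1% of the members and 40.4% of all tested genes. Of the 36 entries, 2 were called higher (Hk3 and Aldoc) and 2 lower (Slc16a3 and Pdk4), where 6.54% of all tested genes were called higher and 3.43% lower. The falls were 1.12 for Slc16a3 and 0.65 for Pdk4 on the log2 scale, and every library of day 4 lay below every library of day 2 for both, as for 3.13% of all genes. Hk3 and Aldoc overlapped between the days, and the rise of Aldoc (0.79, adjusted p = 0.0343 by limma with Benjamini-Hochberg adjustment) was lost with 9 of the 18 libraries of these days left out in turn and with the replicate number as a block. Smaller shifts that passed the adjusted p but not the minimum fold included Ldhb (-0.50), Pfkl (-0.34), Eno1 (-0.31), and Eno2 (0.33).

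Day 4 against day 0 gave counts like those of day 2. There were 18 members called lower and 5 higher, where 21.2% and 24.4% of all tested genes were, with medians of -0.60 and -0.01. The higher members were Pdk2 (1.70), Pgam2 (1.16), the second Aldoa entry (1.02), Aldoc (0.77), and Pfkm (0.75). After rescaling, 16 were lower and 9 higher, with Ldhb (0.71), Pfkfb2 (0.79), Mpc1 (0.60), and Mpc2 (0.64) added, and Slc2a3 and Pdk4 no longer called.

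Within a genotype, the change to day 2 was of the same kind. In WT, 18 members were called lower and 4 higher, where 19.7% and 20.8% of all tested genes were. In Per1-/- cells there were 16 and 4 (18.8% and 20.8% of all genes), and in the libraries labelled Per2-/- 18 and 3 (16.8% and 18.7%). The call was shared by all 3 genotypes for 15 lower members and for the 3 higher members Pfkm, Ldhb, and Pdk2. Between days 2 and 4, Slc16a3 was called lower in each genotype (-1.32 in WT, -1.07 in Per1-/-, and -0.97 in those labelled Per2-/-), where 1.59%, 1.06%, and 1.74% of all genes were called lower, and Ldhb was the other member called, in the libraries labelled Per2-/- (-0.60).

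Whether the genotypes differed was asked on each day and for the change from day 0. By limma with Benjamini-Hochberg adjustment, 0 of the 36 entries were called in any of the 9 comparisons of genotypes on a day, and 0 were called by voom weights on the recovered fragments. Few genes of the table were called on days 0, 2, and 4, namely 0.0134%, 0.0067%, and 0.0268% for Per1-/- against WT, 0.0201%, 0.0737%, and 0.556% for Per1-/- against the libraries labelled Per2-/-, and 0.0067%, 0.0268%, and 0.0067% for the latter against WT. Members with an unadjusted p under 0.05 numbered 2, 0, and 3 for Per1-/- against WT on days 0, 2, and 4, then 9, 2, and 5 for Per1-/- against the libraries labelled Per2-/-, and 2, 0, and 0 for the latter against WT. Of all tested genes, 4.82%, 2.75%, and 6.19% had such a p in the first of these comparisons, 5.97%, 8.22%, and 13.2% in the second, and 3.94%, 2.87%, and 3.42% in the third. The 9 members of day 0 were 25.0% of the 36, and 5 were left after rescaling. These comparisons share libraries and are not independent of each other. The paper, testing counts with DESeq2 at the same thresholds, reports many more genes for Per1-/- against either other genotype on days 2 and 4. By limma, 0 of the 20 macrophage markers were called for Per1-/- against WT on day 2 or day 4. Their median log2 differences were 0.96 and 1.06. The fit thus left sizeable differences uncalled, and a missing call does not show equal levels.

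The smallest p among members was that of Slc16a3 on day 0, with a mean of 19.7 ± 5.19 FPKM in Per1-/-, 11.9 ± 2.24 in WT, and 10.5 ± 4.55 in the libraries labelled Per2-/- (SD, n = 3). The log2 difference of Per1-/- was 0.70 against WT and 0.94 against the libraries labelled Per2-/-, the latter with an adjusted p of 0.441 by limma. Every Per1-/- library was above the other 6. On day 2 the values were 5.37 ± 0.387, 4.45 ± 0.559, and 4.10 ± 0.767 FPKM in the same order.

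On day 4, Hk2 was at 2.62, 3.18, and 2.79 FPKM in Per1-/-, at 1.80, 2.03, and 2.12 in WT, and at 2.19, 1.76, and 2.36 in the libraries labelled Per2-/-. The Per1-/- libraries were again above the other 6, by 0.51 and 0.43 on the log2 scale, with adjusted p = 0.514 and 0.194 by limma. The same held in FPKM as deposited for Gpi1 (30.4 to 32.6 FPKM against 25.7 to 29.2), Pkm, and Aldoa. The macrophage sum of day 4 was likewise 1379 to 2431 FPKM in Per1-/- against 688 to 1219 in WT and 524 to 890.1 in those labelled Per2-/-, and its part in these levels was not tested. For Per1-/- against WT, 7 members were set apart in this way on day 4 (6 above, 1 below), 1 on day 2, and 3 on day 0, where 14.6%, 10.3%, and 5.11% of all genes were. The 1 below was Pdk4, which in Per1-/- was also under the libraries labelled Per2-/- (1.26 to 1.45 against 1.67 to 1.85 FPKM in the other 6). Against WT on day 4, the median log2 difference of the 36 entries was 0.02, and -0.11 after rescaling. Replicate 2 of Per1-/- on day 4 had a summed FPKM of 343225, against 268777 to 293857 in the other libraries of that day. As a share of the summed FPKM, it lay below every WT library of day 4 for Gpi1, Pkm, and Aldoa, and above them for Hk2. For Per1-/- against the libraries labelled Per2-/-, 9 members were set apart on day 0, all of them above (Slc2a1, Hk2, Gpi1, Pfkfb3, Aldoa, Pgk1, Pgam1, Pkm, and Slc16a3), where 6.94% of all genes were. The median log2 difference of the 36 entries in that comparison was 0.15, and 0.04 after rescaling. On day 2 there were 5 (3 above, 2 below) and on day 4 there were 11 (5 above, 6 below), where 16.1% and 19.2% of all genes were. For the libraries labelled Per2-/- against WT the members numbered 2, 1, and 1 on days 0, 2, and 4, where 7.6%, 9.98%, and 10.2% of all genes were. An exact permutation test of 3 libraries against 3 cannot give a two-sided p below 0.1.

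**Figure D4:**
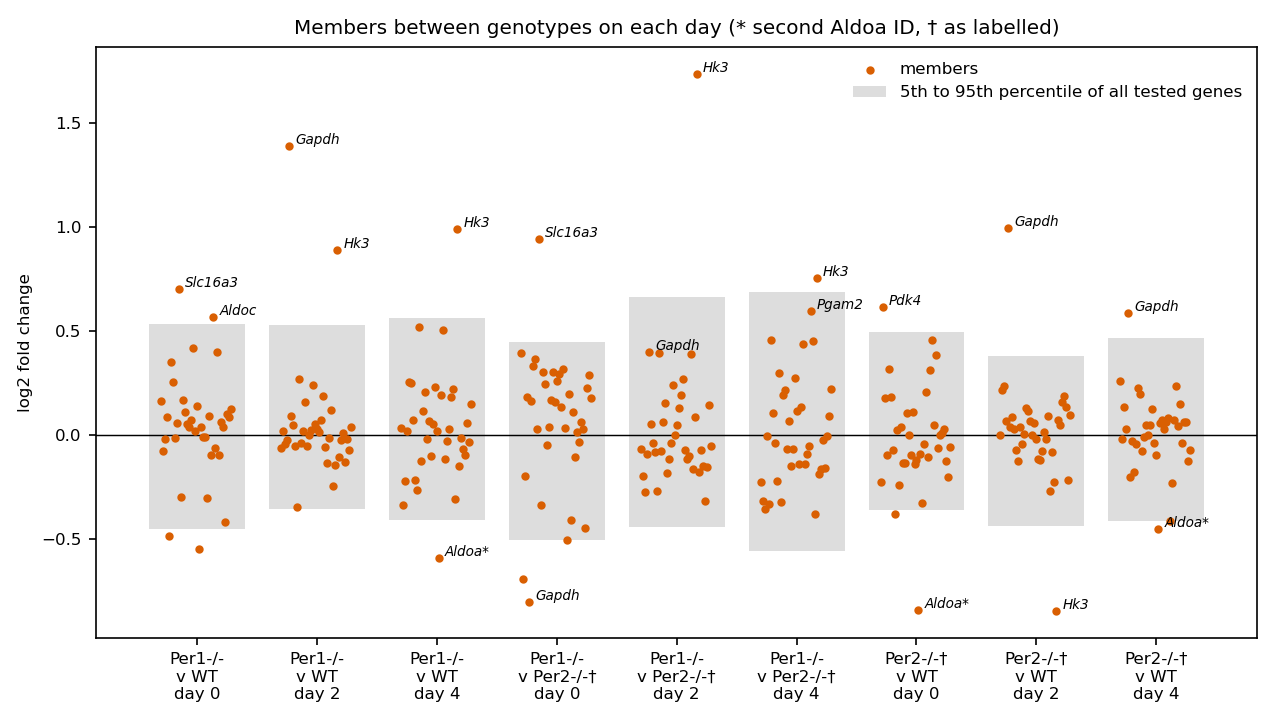
Log2 fold changes of the 36 entries in the 9 comparisons of genotypes on a day, 1 point an entry, with grey bars from the 5th to the 95th percentile of all tested genes and names at points farthest out. No entry was called, most points lay within the bars, and the farthest was Hk3 (1.74 on day 2 between Per1-/- and the libraries labelled Per2-/-).

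The change from day 0 was compared with that of WT by an interaction contrast. None of the 36 entries was called for Per1-/- or for the libraries labelled Per2-/-, on day 2 or day 4, as 0.0% of all tested genes were by limma, and 0 were by voom. At an unadjusted p under 0.05 there was 1, Hk2 in Per1-/- on day 4 (a difference of 0.52 in log2 fold change), where 3.35% of all genes had such a p, and 0 in the other 3 contrasts. A missed threshold does not show that the genotypes had the same course.

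Genes around the pathway, in 10 lists drawn up with earlier results of these data known, are described by counts on day 2 beside the 22.2% higher and 19.9% lower of all tested genes. Of 13 tested other isozymes and side steps of glycolysis, 7 were lower and 1 higher, led by Eno1b (-2.05), which shares sequence with Eno1 and may hold some of its reads, Eno3 (-1.86), Galm (-1.32), and Gpd2 (-1.20). Eno3, the muscle enolase, went from a median of 51.1 FPKM to 13.5 and 11.5. Of 11 pentose phosphate genes, 5 were lower, among them Pgd (-1.45), Tkt (-1.43), and G6pdx (-0.92), the first enzyme of that branch. Of 18 tricarboxylic acid cycle genes, 8 were lower, with Idh3a (-1.07), Mdh2 (-0.97), and citrate synthase Cs (-0.81) in front, and the median was -0.45. After rescaling, 2 and 2 of the tricarboxylic acid cycle genes were lower and higher with a median of -0.06, 2 and 1 of the pentose phosphate genes, and 4 and 1 of the other glycolysis genes.

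In the other pyruvate dehydrogenase genes, 2 of 7 were higher, Pdp1 (1.55), a phosphatase that reverses the kinases, and Pdpr (0.81), its regulatory subunit. Of 14 glycogen genes, 4 were higher, among them Epm2a (1.86) and Phkb (1.55), and 2 were lower, and after rescaling 7 were higher and 1 lower. Of 13 other transporters, 3 were higher, among them Slc16a7 (1.03), MCT2 of neurons, and Slc2a8 (0.71), a hexose transporter of inner membranes, and 1 was lower, Slc16a11 (-0.96). After rescaling 5 transporters were higher and 1 lower, and 3 of the pyruvate dehydrogenase genes were higher. The 3 tested gluconeogenesis genes were not called, with 0.53 for Pck2, -0.37 for G6pc3, and -0.11 for Slc37a4, although Pck2 was called after rescaling (0.91).

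Among known regulators, Myc went from a median of 25.6 FPKM to 8.46 (-1.59), Ppargc1a, a coactivator of mitochondrial genes, from 0.169 to 1.15 (2.23), and the glucose-sensing targets of MLXIP and MLXIPL, Arrdc4 and Txnip, rose by 1.73 and 1.01. In that list 5 of 14 were lower and 3 higher, and after rescaling 1 was lower and 5 higher. Of 9 HIF pathway regulators, 1 was lower (Epas1, -0.87) and 1 higher (Vhl, 0.69), and Hif1a itself was not called (-0.33). After rescaling 4 of them were higher and 0 lower, with Epas1 at -0.51 and not called. Of 20 HIF targets outside glycolysis, 9 were lower and 2 higher, with a median of -0.46. The lower ones were led by Adm (-2.29), Stc2 (-1.42), Ak4 (-1.35), and Higd1a (-1.22). After rescaling 6 of the targets were lower and 6 higher, with a median of -0.08. Of 14 tested neuron markers, 10 were higher on day 2 and 2 lower. Of 12 markers of proliferating cells, 4 were called lower on day 2 than on day 0 and 9 on day 4 than on day 2. The part of these regulators and of proliferation in the levels of the members was not tested.

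**Figure D5:**
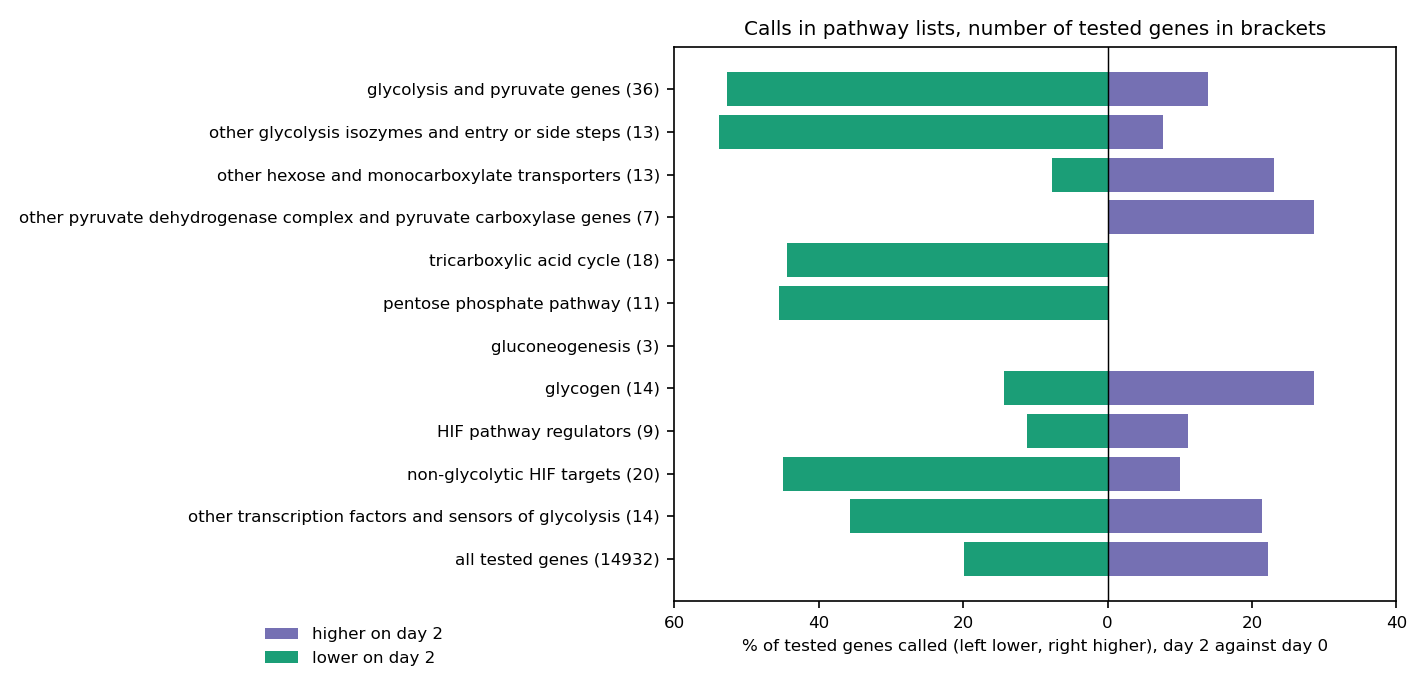
Percent of the tested genes called lower (left) and higher (right) on day 2 against day 0 in each list, in the members, and over all tested genes, with the number tested in brackets. The members had 52.8% lower and 13.9% higher, against 19.9% and 22.2% over all 14932 genes.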

How the data were processed

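Bulk RNA-seq of 27 libraries (3 genotypes, days 0, 2, and 4, n = 3) was used. Per the methods of the study and the submitters' processing notes, poly-A libraries without strand information were aligned to GRCm38 (mm10) with HISAT2 2.0.5 and counted on Ensembl genes with featureCounts 1.5.0-p3, and the authors deposited FPKM for each library. With the gene lengths, 100% of values gave whole fragments (tolerance 0.001), from which depth was taken (15815013 to 24264097 per library). The library factors of the FPKM were recovered in the same way and also served as library sizes for voom. Genotype, day, and replicate came from the labels. Replicate values correlated with Pearson's r of 0.945 to 0.971 across genes.

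Log2(FPKM + 0.1) was taken for the 14932 genes averaging 0.5 FPKM or more, and fitted with limma 3.58.1 (lmFit, contrasts.fit, eBayes with trend, R 4.3.3), with 9 group means, no replicate block, and Benjamini-Hochberg adjustment over all tested genes. Fold changes are on this scale and understate those of low genes. Calls needed an adjusted p of at most 0.05 and 0.58 in log2 units, the thresholds of the study. Each p-value sets a difference of group means against the spread between libraries within the 9 groups. Same-numbered libraries deviated together (r above 0.1 in all 3 pairs) in 3 of the 9 comparisons of days within a genotype, Per1-/- on days 0 and 2 and on days 2 and 4 and WT on days 2 and 4, and there the block left the counts of members called at 20, 1, and 1. The fits were tested on simulated data.

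The members and gene lists were chosen with earlier results of these data known. Library values are plotted, and lowest, median, and highest values given, for members called with a log2 fold change of at least 1 between days 0 and 2 or 2 and 4. Of each list up to 4 called genes with the largest day 2 changes are named, and Hif1a, Pfkfb2, and other uncalled genes for their role. The values of 1 listed gene are not reported here. Alternatives were pseudocounts of 1 and 0.01, a filter at 1 FPKM or none, FPKM rescaled to a common sum, voom weights on recovered fragments, no minimum fold, only the 6 libraries compared, a replicate block, and each library left out in turn. Leaving out the libraries labelled Per2-/- or the entries with shared sequence was added after the data were seen. Sequence sharing was counted over windows of 100 exon bases, and start-site windows were taken from RefSeq (GRCm38.p6). Python 3.11.15, pandas 2.3.3, numpy 2.4.6, scipy 1.17.1, and matplotlib 3.10.9 were used. DESeq2, with which the study tested its counts, was not run.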

Additional observations from a re-analysis of the deposited data

How the results depend on the processing

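The total counts of members called for day 2 against day 0 and day 4 against day 0 stayed within 1.5 times of the reported ones under every alternative run, and no call changed its direction. After rescaling, the 5 called higher became 8 on day 2 and 9 on day 4, and the 19 and 18 called lower became 15 and 16. Over the mean of the genotypes, 24 members were called on day 2 (21 to 24 with a library left out, 20 to 30 under the other settings) and 23 on day 4 (22 to 23, and 19 to 31). The 4 members called between days 2 and 4 became 2 with a pseudocount of 1, 2 with no filter on low values, 2 without the libraries labelled Per2-/-, 20 with no minimum fold change, and 2 to 4 with a library left out. It was 2 without replicate 2 of the libraries labelled Per2-/- on day 2 or replicate 1 of Per1-/- on day 4. In Per1-/-, the 1 member called between days 2 and 4 became 2 after rescaling and 0 to 1 with a library left out. It was 0 without replicate 2 or 3 of either day. In the libraries labelled Per2-/-, the 2 members called became 1 with voom weights, 4 with no minimum fold change, 0 in a fit of only the 6 libraries compared, and 0 to 4 with a library left out. It was 0 without replicate 3 of day 2 or replicate 1 of day 4. The cause of these shifts was not tested. Counts between genotypes were 0 throughout, with 0 to 9 members at an unadjusted p under 0.05.

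Single calls were lost under 11 alternatives for Hk3 on day 2, 6 for Hk3 on day 4 against day 2, 13 for Aldoc on day 4 against day 2, and 5 for Slc2a3 on day 2. Rescaling moved the share of lower calls over all genes from 47.3% to 19.5% (day 2 against day 0), from 46.5% to 25.9% (day 4 against day 0), and from 34.4% to 44.6% (day 4 against day 2, where the median of all genes moved from -0.01 to -0.09).

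Libraries of a genotype with the same replicate number deviated together over days in 14 of 27 pairs (r above 0.1), and libraries of a day in 3 of 27. Since not every pair did, the numbers were not taken to pair the samples in the comparisons over the mean of the genotypes or between genotypes. With the replicate number as a block, 24 members were called on day 2, 3 on day 4 against day 2, and 23 on day 4 against day 0, and 0 between genotypes. The call lost was that of Aldoc. Each library was also set against the 3 libraries of each other day of its genotype, and in 48 of these 54 cases it correlated best with its own number, against 13 of 54 for the other genotypes of its day. Within a genotype the numbers thus went with a pairing over days, which the main tests leave out and the block takes in. Depth limits the second Aldoa entry, with a median of 8 fragments on day 0.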
